A study of Mus musculus with 4 samples.

Results

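The genes described here are 10 mouse genes of mucosal defence and duct surface, Lcn2, Wfdc18, Wfdc2, Slpi, Dmbt1, Pigr, Muc1, Vtcn1, Plet1 and Gabrp, followed in biliary epithelial cells (BECs), the lining of the bile ducts. They are 10 of the 50766 genes in the deposited gene table, and all 10 passed the filter on low counts that left 16041 genes for testing in BEC-like cells. They were picked by name with their response to bile duct ligation already known from these data. Their levels in ligated and sham animals are therefore given as a description with no test.

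The series profiled single cells from the livers of 4 mice, labelled as biliary epithelial cells of genotype Sox9EGFP (a green fluorescent reporter of the duct transcription factor gene Sox9), with 1 library per mouse. In the sham group, 2 mice were taken 7 days after sham surgery. In the BDL group, 2 mice were taken 7 days after bile duct ligation, surgery that closes the duct and holds bile back in the liver. All 4 animals carried the same genotype, and their age, sex and the way the cells were isolated are not given in the sources used here.

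Each deposited cell table carries a group name of its own, which contradicts the sample label for sham replicate 2 (named BDL) and for BDL replicate 2 (named sham). Libraries were grouped by their labels, and each log2 fold change of a member is also given between sham replicate 1 and BDL replicate 1, the libraries whose names match. After filtering, 12180 of 12211 cells were analysed, and no cell barcode was shared between libraries. BEC-like cells made up 81.5% to 94.7% of each library, between 1972 and 3829 cells, and all 11 biliary marker genes were detected in them in every library. Median depth was 2760 to 3298 UMIs (unique molecular identifiers, counted transcripts) per BEC-like cell in sham and 7128 to 7876 in BDL, so depth moved with the groups.

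Duct-lining epithelium is a mucosal surface: it secretes proteins that starve, bind or degrade microbes, coats itself with mucin, and carries immunoglobulin A from the tissue side into bile. Lipocalin 2 (Lcn2) withholds iron by binding bacterial siderophores, the whey acidic protein (WAP) domain proteins Slpi, Wfdc2 and Wfdc18 belong to a family of secreted protease inhibitors, and Pigr is the receptor that carries polymeric immunoglobulin A across the cell. Several of these genes are textbook targets of the transcription factors NF-kB, C/EBP and STAT in other epithelia.

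Promoters are shown for 6 members because the members moved together by position or by group: Lcn2, Wfdc18 and Gabrp were the most raised in BDL, Pigr was far lower, and Vtcn1 and Plet1 both stood high in the same BEC subcluster. The sequences are from RefSeq, build GRCm38.p6, 250 bases before to 50 bases after the annotated start, 5′ to 3′ on the gene's strand, and the table held 9 of the 10 members, all but Dmbt1. The files themselves use GRCm39, so the positions belong to GRCm38.p6 only: Lcn2 chr2:32387690-32387989 (- strand), Wfdc18 chr11:83708754-83709053 (+ strand), Gabrp chr11:33578908-33579207 (- strand), Pigr chr1:130826434-130826733 (+ strand), Vtcn1 chr3:100825209-100825508 (+ strand) and Plet1 chr9:50494275-50494574 (+ strand). Capitals mark matches on either strand to 5 motifs: NF-kB (GGGA, any 4 bases, then CC), C/EBP (TTGCNNAA), STAT (TTCNNNGAA), AP-1 (TGANTCA) and ETS (AGGAAG).
Lcn2: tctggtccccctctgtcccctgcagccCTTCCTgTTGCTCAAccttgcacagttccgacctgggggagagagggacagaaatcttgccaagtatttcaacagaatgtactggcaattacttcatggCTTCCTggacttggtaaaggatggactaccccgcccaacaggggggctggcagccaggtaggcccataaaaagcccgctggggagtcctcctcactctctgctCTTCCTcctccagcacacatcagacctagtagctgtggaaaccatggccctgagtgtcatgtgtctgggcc
Wfdc18: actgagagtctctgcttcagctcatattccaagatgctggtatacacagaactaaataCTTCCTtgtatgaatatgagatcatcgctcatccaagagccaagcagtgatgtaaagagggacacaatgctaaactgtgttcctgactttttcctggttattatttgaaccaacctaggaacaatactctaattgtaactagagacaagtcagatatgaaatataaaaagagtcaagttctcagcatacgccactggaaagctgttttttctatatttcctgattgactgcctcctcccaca
Gabrp: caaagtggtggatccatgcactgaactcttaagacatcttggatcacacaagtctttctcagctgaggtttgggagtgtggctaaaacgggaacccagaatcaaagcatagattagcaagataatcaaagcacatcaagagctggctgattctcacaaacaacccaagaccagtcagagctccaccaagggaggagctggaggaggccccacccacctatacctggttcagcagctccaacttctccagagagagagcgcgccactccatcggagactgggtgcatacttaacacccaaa
Pigr: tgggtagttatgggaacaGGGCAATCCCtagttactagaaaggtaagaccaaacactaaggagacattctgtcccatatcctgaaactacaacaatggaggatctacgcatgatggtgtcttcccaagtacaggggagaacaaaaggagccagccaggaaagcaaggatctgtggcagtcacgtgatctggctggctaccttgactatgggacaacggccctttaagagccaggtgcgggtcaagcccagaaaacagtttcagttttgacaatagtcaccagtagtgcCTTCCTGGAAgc
Vtcn1: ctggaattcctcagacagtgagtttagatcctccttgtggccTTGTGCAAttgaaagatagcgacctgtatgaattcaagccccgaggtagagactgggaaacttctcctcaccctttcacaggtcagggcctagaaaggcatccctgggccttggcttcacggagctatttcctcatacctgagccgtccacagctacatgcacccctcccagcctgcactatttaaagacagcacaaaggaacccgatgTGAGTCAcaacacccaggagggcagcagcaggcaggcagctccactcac
Plet1: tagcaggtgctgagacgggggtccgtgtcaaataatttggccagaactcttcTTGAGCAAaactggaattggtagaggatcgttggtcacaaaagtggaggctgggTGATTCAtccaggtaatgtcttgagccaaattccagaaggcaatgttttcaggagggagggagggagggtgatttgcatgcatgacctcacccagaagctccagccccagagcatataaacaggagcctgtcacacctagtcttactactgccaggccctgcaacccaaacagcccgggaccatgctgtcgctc
The C/EBP letters stood in 4 of the 9 promoters (Lcn2, Slpi, Vtcn1 and Plet1), against 10.8% of all 32851 promoters of that length. The AP-1 letters stood in 2 (Vtcn1 and Plet1, against 7.81% of all), and the ETS letters in 4 (Lcn2, Wfdc18, Wfdc2 and Pigr, against 35.4%). The NF-kB and STAT letters were each found in 1 of the 9, that of Pigr, against 20.7% and 8.30% of all promoters. The STAT match of Pigr shares bases with its ETS match. The Gabrp and Muc1 windows held none of the 5 motifs. A match of letters is a description of the sequence and not evidence of binding.

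The secreted proteins of the set differed widely in their response (the plot of member levels per library). Levels are UMI counts summed over BEC-like cells per library, as CPM (the gene's counts relative to all counts of that sum, scaled by TMM, a correction for library composition), and are compared for 1 gene at a time. Lcn2 measured 133 and 102 CPM in sham and 686 and 685 CPM in BDL. No BDL library came near a sham library, and the 2 BDL mice were almost equal (SD 0.728 CPM, n = 2). The log2 fold change of Lcn2 was 2.54 (SE 0.16), or 5.83-fold higher in BDL, and 2.36 between the matching libraries.

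Wfdc18, a WAP domain gene, had the largest fold of the 10. It was close to undetected in sham, at 4.16 and 3.50 CPM (43 and 28 UMIs), and stood at 90.8 and 98.1 CPM in BDL (1316 and 3123 UMIs). The groups were far apart, with a log2 fold change of 4.61 (SE 0.16), or 24.4-fold, and 4.45 between the matching libraries. Wfdc2, which encodes the secreted WAP protein HE4, stood at 22.2 and 37.0 CPM in sham and 52.4 and 64.7 CPM in BDL. Its groups did not overlap, with a log2 fold change of 1.0 (SE 0.24) and of 1.24 between the matching libraries.

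Slpi, the secretory leukocyte protease inhibitor, did not follow the other WAP genes. Its levels were 39.5 and 24.5 CPM in sham and 31.2 and 15.4 CPM in BDL. The groups overlapped, since BDL replicate 1 lay between the sham libraries, and the log2 fold change was -0.48 (SE 0.36), with -0.34 between the matching libraries.

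**Figure D1:**
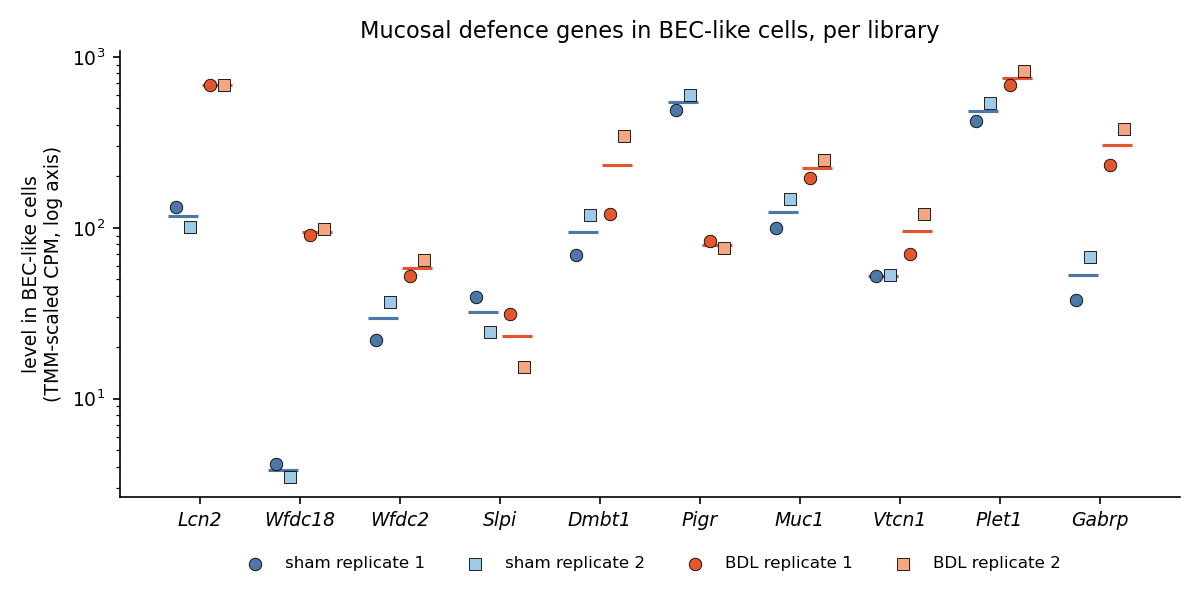
Level of each of the 10 genes in BEC-like cells (TMM-scaled CPM, log axis), 1 point per library, with bars at the mean of the 2 libraries of a group. Lcn2, Wfdc18 and Gabrp lie far higher in both BDL libraries, Pigr far lower (83.5 and 75.7 against 492 and 598 CPM), and the Slpi points of the groups overlap.

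Dmbt1 and Pigr encode proteins of mucosal binding and transport. Dmbt1, a secreted scavenger receptor that binds bacteria and mucosal proteins, stood at 69.7 and 118 CPM in sham and at 120 and 344 CPM in BDL. BDL replicate 1 lay just above the higher sham library, and the log2 fold change of 1.31 (SE 0.47) rested on BDL replicate 2. It was 0.36 without that library, 1.90 without BDL replicate 1 and 0.78 between the matching libraries.

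Pigr was the member that was far lower after ligation. It stood at 492 and 598 CPM in sham and at 83.5 and 75.7 CPM in BDL, 6.85-fold lower, with a log2 fold change of -2.78 (SE 0.14) and of -2.56 between the matching libraries. Both BDL libraries lay far under both sham libraries. In other cells of the BDL libraries, mesenchymal-like cells held 64.3 and 73.2 CPM of Pigr, endothelial-like cells 103 and 91.5 CPM (6 and 12 UMIs), a small mixed immune cluster 66.8 and 96.8 CPM (3 and 6 UMIs) and hepatocyte-like cells 234 and 231 CPM (16 and 56 UMIs). In sham, endothelial-like cells held 384 and 206.5 CPM (24 and 30 UMIs), the mixed immune cluster 274 and 317 CPM (7 and 8 UMIs) and hepatocyte-like cells 524 and 1223 CPM (4 and 168 UMIs). In sham the mesenchymal-like level was 31.4% and 31.6% of the BEC-like level, and in BDL it was 77.8% and 97.5%.

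The sum of the markers of hepatocytes, which also express Pigr, moved with this difference, but not every marker did. The 10 hepatocyte markers summed to 1620 and 1681 CPM in BEC-like cells of sham and to 425 and 423 CPM in BDL, with 9 of 10 detected in each sham library and 10 of 10 in each BDL library. Alb carried most of it (854 and 993 against 71.1 and 47.0 CPM), and Cyp2e1 was at 0 in sham and at 1 and 4 UMIs in BDL. Ttr, Hnf4a, Apoa1 and Cps1 were also lower in both BDL libraries. Fgb was higher in BDL (0.92 and 0.83 against 3.7 and 4.8 CPM), and Serpina1c, Apob and Ass1 overlapped between groups. Among BEC-like cells with no UMI of any hepatocyte marker, a choice made after seeing the data that kept 170, 225, 304 and 505 cells (sham 1, sham 2, BDL 1, BDL 2), Pigr was still lower, at 271 and 365 against 74.2 and 88.0 CPM before TMM scaling and with a log2 fold change of -1.98. In the same cells Lcn2 remained higher (1.70), as did Wfdc18 (3.05) and Gabrp (1.05), while Wfdc2 came to 0.00, Dmbt1 to -0.25 and Slpi to 1.02. The groups overlapped there for Wfdc2, Slpi, Dmbt1 and Plet1. That choice also favours shallow cells, with a median of 1980 and 1780 UMIs in sham, and the part of free hepatocyte RNA in these levels was not tested.

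Muc1, a membrane-bound mucin of duct surfaces, stood at 100 and 147 CPM in sham and at 196 and 251 CPM in BDL. The groups did not overlap and the log2 fold change was 0.86 (SE 0.21), with 0.96 between the matching libraries. The surface proteins Vtcn1 and Plet1 were higher by smaller or less even amounts. Vtcn1 (B7-H4, a T-cell inhibitory ligand of the B7 family) stood at 51.9 and 52.6 CPM in sham and 70.4 and 120 CPM in BDL, a log2 fold change of 0.87 (SE 0.24) and of 0.44 between the matching libraries. Plet1, a surface protein of epithelial progenitors, stood at 420 and 539 CPM in sham and 683 and 827 CPM in BDL, with a log2 fold change of 0.66 (SE 0.17) and of 0.70 between the matching libraries. Neither gene's groups overlapped.

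Gabrp, the pi subunit of the GABA-A receptor, which is found mainly outside the nervous system, stood at 38.1 and 67.2 CPM in sham and at 233 and 379 CPM in BDL. The BDL libraries lay far above the sham libraries, with a log2 fold change of 2.55 (SE 0.32) and 2.61 between the matching libraries. In all, 8 members were higher in every BDL library than in every sham library, 1 (Pigr) was lower in every one and 1 (Slpi) overlapped. Of all genes tested in BEC-like cells, 68.9% did not overlap between the groups, 33.7% higher and 35.2% lower. The members were chosen on this contrast, so nothing is read from their count.

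Neutrophils also make Lcn2. Their 10 markers summed in BEC-like cells to 3.38 and 2.15 CPM in sham and to 0.273 and 0.436 CPM in BDL. S100a8 and S100a9 each had at most 1 UMI per library, and Ly6g and Retnlg were at 0.

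The share of cells with a UMI is given beside these levels. At a set depth it also depends on the mean level, so it does not by itself show how a difference was spread over the cells. Each cell was thinned to 1000 UMIs, with 85 and 108 shallower sham cells left out and none in BDL. Lcn2 was found in 10.1% and 6.60% of sham BEC-like cells and in 41.5% and 44.2% of BDL cells (exact Clopper-Pearson 95% intervals of 8.91 to 11.3% and 5.66 to 7.65%, against 39.4 to 43.7% and 42.6 to 45.8%). These intervals, like those below, cover counting error within a library and not the spread between mice. Without thinning the Lcn2 shares were 21.2%, 14.2%, 87.4% and 89.8%. The same libraries' mesenchymal-like cells gave Lcn2 shares of 0%, 0.806%, 0% and 5.26% at 1000 UMIs, where 0 of 181 and 0 of 71 cells allow shares of up to 2.02% and 5.06% of cells with a UMI at that depth (upper Clopper-Pearson limits), which sets no limit on cells expressing the gene.

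Pigr was found in 35.2% and 37.5% of sham cells and in 7.71% and 8.12% of BDL cells. Mesenchymal-like cells of the same BDL libraries gave Pigr shares of 2.82% (interval 0.343 to 9.81%) and 9.77% (5.31 to 16.1%), at median depths of 6294 and 7329 UMIs, and the part of free RNA in the BDL shares was not tested. Gabrp was in 3.43% and 4.39% of sham cells and 16.5% and 25.0% of BDL cells, and Wfdc18 in 0.512% and 0.322% against 7.96% and 9.51%. Plet1 was widespread in both groups, in 31.6% and 30.4% of sham cells and in 37.9% and 41.3% of BDL cells.

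Muc1 was in 8.94% and 10.7% of sham cells and 17.1% and 21.4% of BDL cells, Wfdc2 in 2.72% and 3.46% against 5.02% and 6.61%, and Vtcn1 in 5.28% and 4.27% against 6.14% and 8.30%. Dmbt1 was in 5.63% and 6.44% of sham cells and 4.92% and 9.01% of BDL cells, so its shares overlapped between groups, and Slpi was in 3.47% and 2.34% against 2.84% and 1.54%. Mesenchymal-like cells (sham 1, sham 2, BDL 1, BDL 2) gave Dmbt1 shares of 6.63%, 4.30%, 4.23% and 4.51% and Slpi shares of 7.74%, 3.76%, 4.23% and 3.01%. The BEC-like share of Slpi was thus under the mesenchymal-like one in 4 of 4 libraries and that of Dmbt1 above it in 3 of 4, so the Slpi shares show no level above that class. Dmbt1 is a gene of few cells with many transcripts: its highest single BEC-like cell held 433 UMIs, in BDL replicate 2. A cell held on average 1.07 and 1.06 different members in sham and 1.48 and 1.75 in BDL, and 28.7% and 28.8% of sham cells against 45.3% and 54.6% of BDL cells held at least 2.

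**Figure D2:**
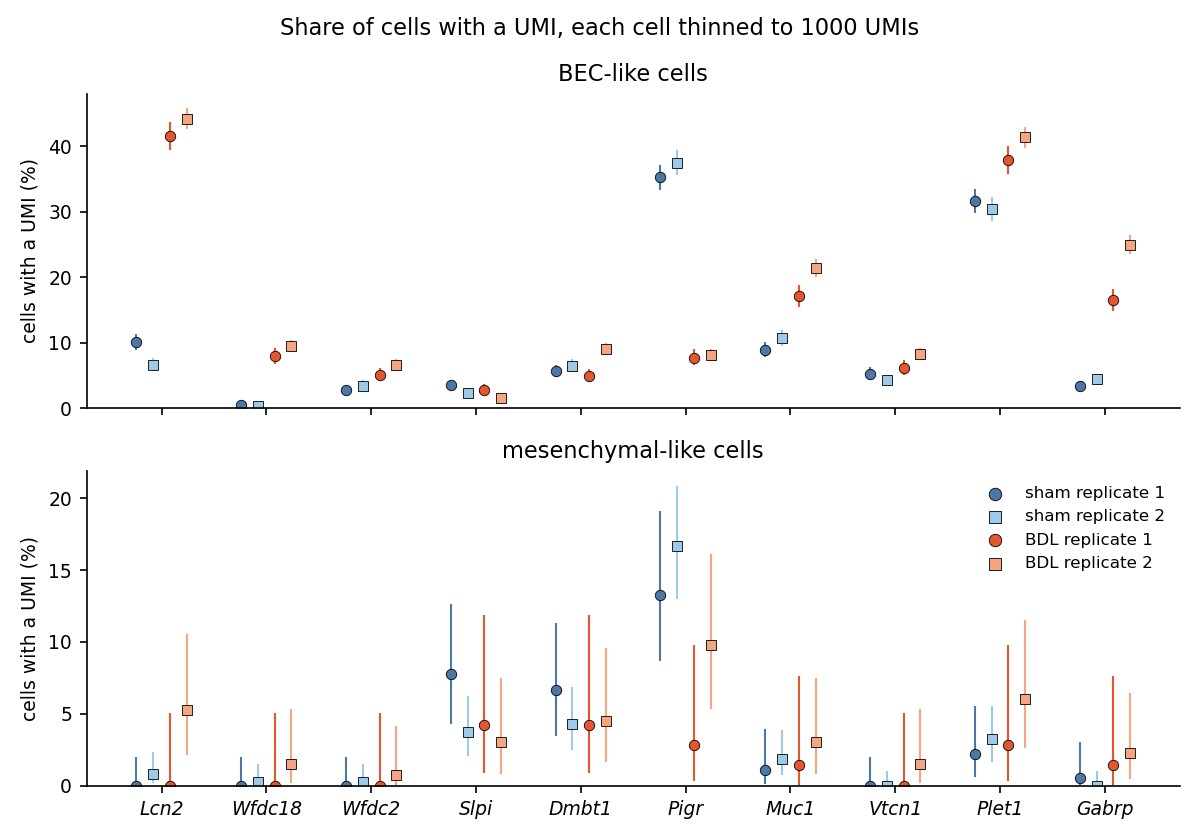
Percent of BEC-like cells (top) and mesenchymal-like cells (bottom) with a UMI of each gene, with every cell thinned to 1000 UMIs; points are libraries and bars are exact 95% intervals. Lcn2 lies at 41.5% and 44.2% in BDL against 10.1% and 6.60% in sham, and Pigr in BDL (7.71% and 8.12%) lies near its mesenchymal-like shares.

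To see which BECs carried each gene, BEC-like cells were clustered again without the members, the companion lists and every gene at an unadjusted p under 0.05 between groups (6653 genes left out). This gave 5 subclusters with at least 30 cells in every library, known here by number and leading genes: 1 (Ankrd1, Ccn1), 2 (Nos2, Rasal1), 3 (Fos, Klf2), 4 (Ryr1, Fer1l5) and 5 (Anxa1, Ptprt); a group of 14 cells was left aside. Subcluster 2 held 12.01% and 5.87% of sham cells and 33.2% and 42.8% of BDL cells, subcluster 3 held 26.3% and 43.8% against 11.7% and 8.96%, and subcluster 5 held 10.5% and 20.9% against 7.40% and 13.8%. Values below are CPM of summed UMIs without TMM scaling, and a subcluster against the rest is no test.

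In sham livers Lcn2 was a gene of subclusters 5 and 2. It stood at 472 and 287 CPM in subcluster 5 and at 302 and 168 CPM in subcluster 2, and at 21.8 to 93.6 CPM in the other subclusters. In BDL every subcluster held 479 to 845 CPM of Lcn2. Gabrp was also highest in these subclusters in sham: 222 and 238 CPM in subcluster 5 and 97.4 and 81.6 CPM in subcluster 2 of sham livers against 3.96 to 10.8 CPM elsewhere, and 129 to 565 CPM across all 5 in BDL, where it was highest in subcluster 2 and Lcn2 in subcluster 5. The difference between groups in Gabrp was thus small in subcluster 5 (222 and 238 against 255 and 396 CPM) and large in subcluster 1 (3.96 and 4.42 against 129 and 134 CPM).

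Pigr was the mirror image of these genes. In sham it was lowest in subcluster 5, at 128 and 133 CPM, intermediate in subcluster 2, at 318 and 382 CPM, and at 547 to 753 CPM in subclusters 1, 3 and 4. In BDL all 5 subclusters held 72.1 to 83.9 CPM. Wfdc18 in BDL stood at 79.5 to 126 CPM in subclusters 1 to 4 and was lowest in subcluster 5, at 29.0 and 44.7 CPM. In sham it was not lowest there, at 11.2 and 5.23 CPM in subcluster 5 against 0 to 16.3 CPM in the others.

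Dmbt1 and Vtcn1 were highest in subcluster 5 in all 4 libraries. Dmbt1 stood there at 386 and 363 CPM in sham and at 1108 and 1903 CPM in BDL, and at 23.8 to 63.7 CPM in the other subclusters except subcluster 4 of BDL replicate 2 (194 CPM). Mesenchymal-like cells, at 33.0 to 60.6 CPM of Dmbt1, lay in the same range as BEC-like cells outside subcluster 5. Vtcn1 in subcluster 5 stood at 169 and 123 CPM in sham and 214 and 420 CPM in BDL, and Plet1 at 810 and 881 CPM against 1483 and 1816 CPM. In sham replicate 2, Plet1 was as high in subcluster 2 (888 CPM). In subcluster 3 Plet1 stood at 304 and 315 CPM in sham and 297 and 281 CPM in BDL. Wfdc2 was also highest in subcluster 5 in all 4 libraries, at 61.0 and 87.4 CPM in sham and 74.7 and 113 CPM in BDL.

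Slpi was concentrated in subcluster 4, at 176 and 141 CPM in sham and 94.0 and 60.3 CPM in BDL, where all other subclusters of all libraries held 3.05 to 29.2 CPM. In subcluster 5 it stood at 17.6 and 29.2 CPM against 3.05 and 4.19 CPM in sham. Muc1 stood at 69.2 to 239 CPM in sham and 148 to 294 CPM in BDL over the 5 subclusters.

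Counted over the 5 subclusters, Lcn2, Wfdc18, Gabrp and Vtcn1 were higher without overlap between groups in 5 and Pigr was lower in 5. Wfdc2 and Muc1 were higher in 4 with overlap in the fifth, Plet1 was higher in 3 and lower in 1, Slpi was higher in 2 and lower in 1, and Dmbt1 was higher in 2. Over the same subclusters, 27.8% of the values of all 16041 genes were higher and 26.8% lower without overlap. These differences come from the contrast on which the genes were chosen and have no test.

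A finer clustering of the same cells (resolution 1 in place of 0.5) gave 9 subclusters with at least 30 cells in every library, and some of these differences ended there in whole or in part. Lcn2, Wfdc18, Wfdc2 and Gabrp were higher without overlap in 9 of 9 and Pigr was lower in 9, while Vtcn1 was higher in 4 with overlap in 5. Of all 16041 genes, 17.3% to 31.1% were higher and 17.0% to 29.4% lower without overlap in each of these 9. Nothing is read from the counts of members. Lcn2 reached down to 398 CPM in BDL and up to 446 CPM in sham over these 9, so its levels crossed between different finer subclusters, and Pigr ranged from 65.6 to 123 CPM in BDL. In the finer subcluster that held 53.5% of the cells of subcluster 4, Slpi stood at 212 and 185 CPM in sham and 190 and 184 CPM in BDL, so its groups overlapped. In another, with 37.3% of subcluster 4, Slpi was still lower in BDL, at 41.3 and 49.9 against 30.1 and 15.9 CPM. In the one that held 56.1% of subcluster 3, Plet1 overlapped between groups, at 302 and 294 against 301 and 261 CPM, and in one with 18.2% of it Plet1 was still lower in BDL, at 366 and 340 against 311.5 and 335 CPM.

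Subcluster 5 split mainly into a finer subcluster of mostly sham cells (329 and 563 sham, 62 and 82 BDL cells) and another of mostly BDL cells (30 and 24 against 114 and 467). Dmbt1 stood at 244 and 317 CPM in sham and 38.8 and 97.3 CPM in BDL in the first, so it was lower in BDL there, and at 904 and 670 against 1280 and 2106 CPM in the other. Vtcn1 overlapped between groups in both, at 133 and 109 against 111 and 122 CPM and at 337 and 239 against 230 and 469 CPM. Plet1 was higher in BDL in the first (727 and 859 against 1305 and 1143 CPM), and overlapped in the other (1206 and 1664 against 1654 and 1991 CPM).

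**Figure D3:**
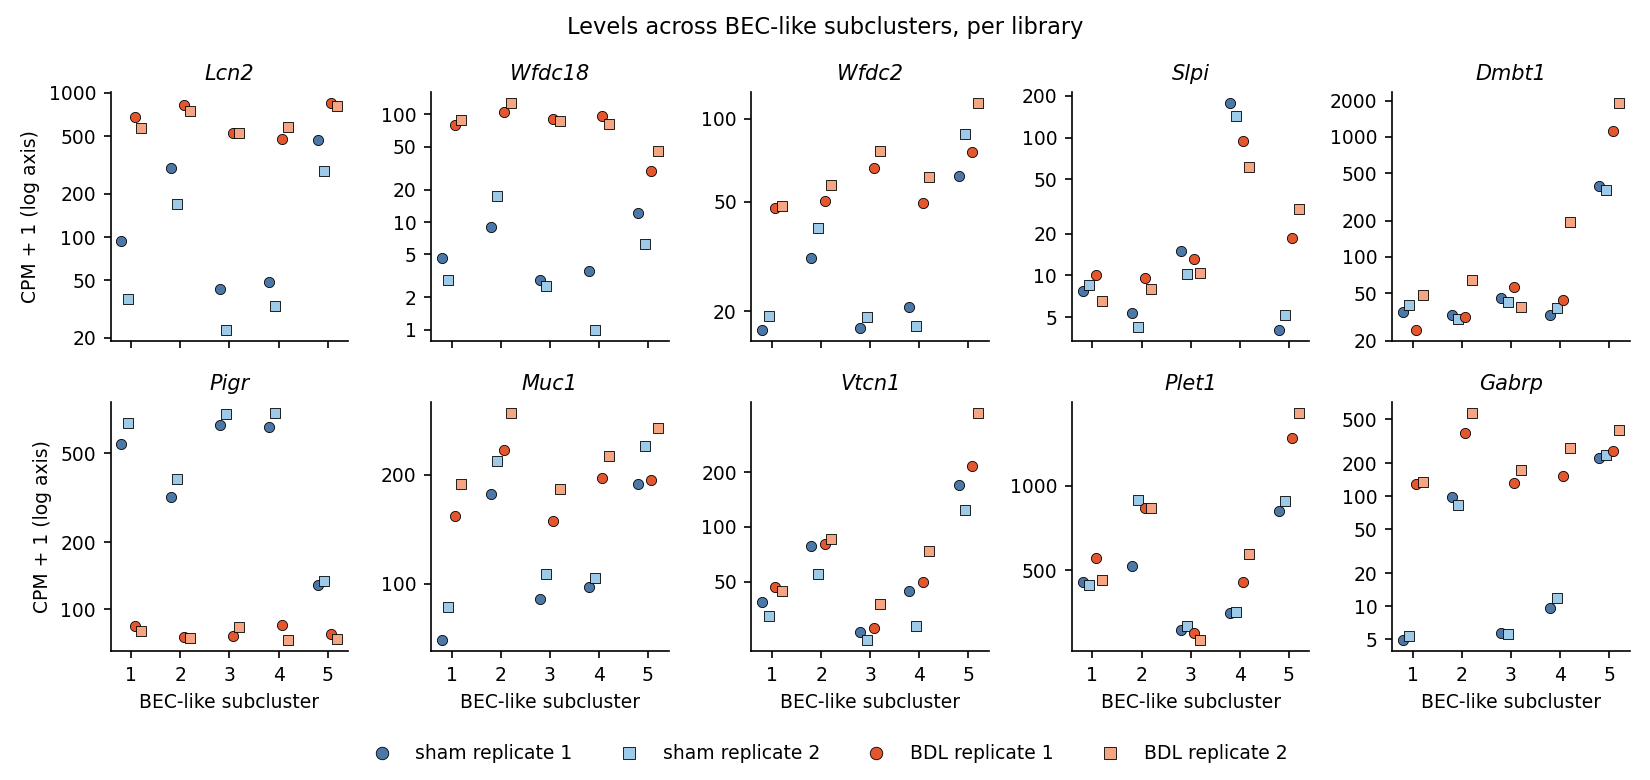
CPM + 1 (log axis) of each gene in the 5 BEC-like subclusters, 1 point per library; each panel has its own scale. Dmbt1 and Vtcn1 peak in subcluster 5 and Slpi in subcluster 4 (176 and 141 CPM in sham), Lcn2 and Gabrp are higher in all 5 in BDL, and Pigr lies at 72.1 to 83.9 CPM in BDL.

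Genes with the most similar pattern were sought over 20 points, the 5 subclusters of 4 libraries, after each library's mean was subtracted, among 6341 genes of at least 20 CPM. The points share libraries and cells, and r is a description with no p. Closest to Lcn2 were Clic1 (r = 0.98) and Cttn (0.98), to Gabrp Plekha6 (0.98) and Spint2 (0.98), to Pigr Kcnma1 (0.97) and Trf (0.95), and to Slpi Scin (0.95) and Ampd1 (0.94). For Dmbt1 they were Eps8 (0.96) and Bgn (0.95), for Vtcn1 Tmc5 (0.96) and Tnip3 (0.95), for Plet1 Frmd4b (0.94) and Lpin2 (0.94), for Muc1 Cep85 (0.96) and Sema4b (0.95), for Wfdc2 Ildr2 (0.96) and Efna5 (0.95), and for Wfdc18 Il23a (0.92) and Cyba (0.92). The 5 genes closest to the mean of the 10 member profiles were Cdh13 (0.98), Lrmda (0.97), Pls1 (0.96), Ldlrad4 (0.96) and Tnip3 (0.95). Among the members, Muc1 and Gabrp (0.96), Vtcn1 and Plet1 (0.94) and Lcn2 and Gabrp (0.94) were most alike, and Lcn2 and Pigr were most opposed (-0.92).

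The same arrangement could be read from single cells. At 1000 UMIs per cell, 13 of the 45 pairs of members had a log2 odds ratio above 0 in all 4 libraries (0.5 cells added to each count), and 7 pairs one below 0 in all 4. Of the 13, Wfdc18 and Wfdc2 shared no cell in sham replicate 1, so 12 pairs were found together in more cells than their separate shares would give in every library. Wfdc2 and Gabrp had the highest median log2 odds ratio (1.41), followed by Dmbt1 and Vtcn1 (1.32) and Wfdc18 and Gabrp (1.25), the last from 3 and 1 shared cells in sham. Dmbt1 and Vtcn1 were found together in 83 cells of BDL replicate 2, where 28.6 would follow from their shares. Pigr and Gabrp were apart in sham, together in 11 and 15 cells where 30.6 and 40.8 would follow, with log2 odds ratios of -1.91 and -1.93 in sham and -1.10 and -0.29 in BDL. In BDL the sign changed with depth, to 0.36 and 0.01 at 500 UMIs and 0.41 and 0.30 with no thinning, while both sham libraries stayed negative. With no thinning 26 pairs were positive and none negative in all 4 libraries, and at 500 UMIs the numbers were 12 and 1.

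**Figure D4:**
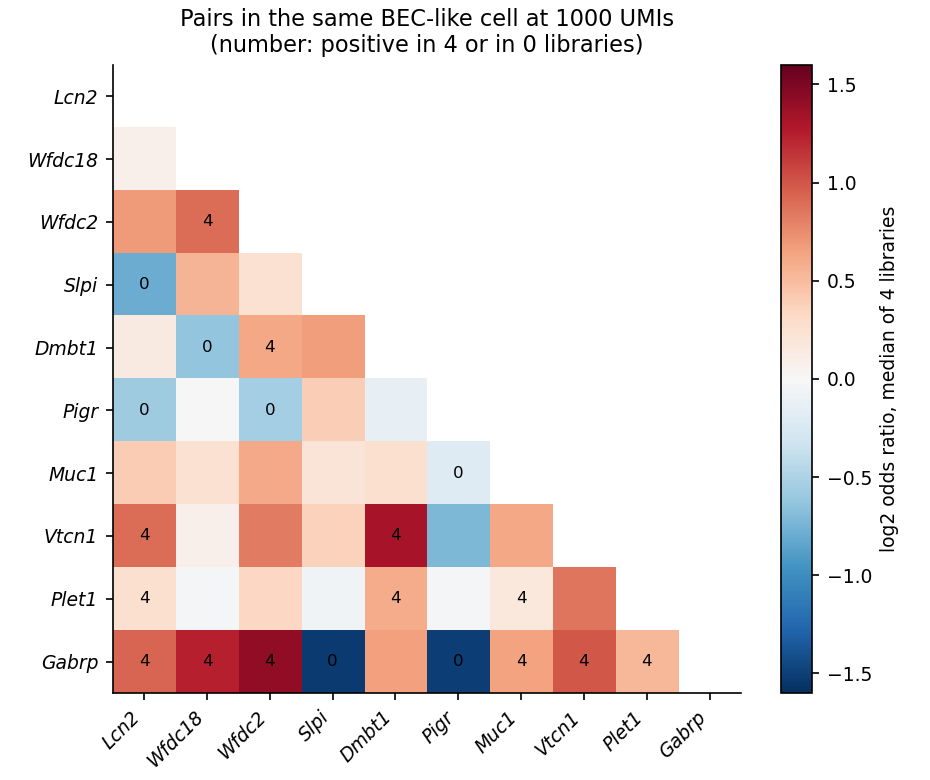
Median over 4 libraries of the log2 odds ratio that 2 genes are found in the same BEC-like cell at 1000 UMIs; red is more often and blue less often than their separate shares give, and a number marks pairs positive in 4 or in 0 libraries. Pigr and Slpi with Gabrp are the bluest pairs (-1.50 and -1.53) and Wfdc2 with Gabrp is the reddest (1.41).

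Mesenchymal-like cells of the same mice (187 and 417 cells in sham, 71 and 133 in BDL) were not used to choose the genes and allowed a test. Of the 10 members, 6 had enough counts for edgeR's quasi-likelihood test, in which 5.78% of the 8818 genes tested there were called (2.21% higher and 3.57% lower). Pigr and Lcn2 had an adjusted p under 0.05, but Lcn2 had enough counts only through the BDL libraries, so no share of members is read against that background. Pigr fell, from 165 and 196 CPM in sham to 67.1 and 72.7 CPM in BDL, with both BDL libraries under both sham libraries. The log2 fold change was -1.36 (SE 0.24, edgeR adjusted p = 0.0170), and the call held in all 8 alternatives run, of which 4 leave only 1 library in a group and take its spread from the other. The 2 mesenchymal-like clusters were mixed differently in the groups: 1 held 105 of 187 and 315 of 417 sham cells but 27 of 71 and 22 of 133 BDL cells. Pigr stood there at 218 and 202 CPM in sham against 67.9 and 104.5 CPM in BDL (10 and 15 UMIs), and in the other cluster at 115 and 139 against 62.8 and 68.7 CPM, so it was lower in BDL without overlap within each. In these cells the 10 hepatocyte markers summed to 144 and 351 CPM in sham and 127 and 116 CPM in BDL, and biliary markers were present in every library, as given below. The part of free hepatocyte or biliary RNA, or of doublets, in the Pigr level was not tested.

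Lcn2 in mesenchymal-like cells stood at 0 and 5.10 CPM (0 and 6 UMIs) in sham and at 16.3 and 77.1 CPM (8 and 88 UMIs) in BDL. The groups did not overlap, but most of the BDL counts came from BDL replicate 2, and the fitted log2 fold change of 3.97 (SE 0.89, edgeR adjusted p = 0.0352) depends on a sham library at 0. Since Lcn2 passed the count filter only through the BDL libraries, nothing is read from this p. DESeq2 gave an adjusted p of 0.292 and scaling by library total 0.0566, and without BDL replicate 2 the gene had too few counts to be tested. In BDL replicate 2 the mesenchymal-like level of Lcn2 was 11.4% of the BEC-like level. Wfdc18, Dmbt1, Muc1, Vtcn1, Plet1 and Gabrp stood at 8.13% to 11.7% in the same way, and Wfdc2 at 2.75%. In BDL replicate 1 Lcn2 stood at 2.3%, and Wfdc18, Muc1, Vtcn1, Plet1 and Gabrp at 1.15% to 5.03%. Dmbt1 stood there at 29.55%, and Wfdc2 had 0 UMIs. The 11 biliary markers, all of them detected, stood in mesenchymal-like cells at 10.7% and 18.7% of their BEC-like level in sham and at 10.4% and 18.1% in BDL. The part of biliary RNA or of doublets in the Lcn2 result was not tested.

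Slpi was the member with a higher CPM in mesenchymal-like than in BEC-like cells in every library, at 199% and 262% of the BEC-like level in sham and 246% and 335% in BDL. Its level there was 84.1 and 66.3 CPM in sham and 79.3 and 50.8 CPM in BDL, with a log2 fold change of -0.24 (SE 0.31, edgeR adjusted p = 0.719). This pooled value joins clusters that differed: the one with most sham cells held more Slpi in every library and was higher in BDL (131.5 and 75.4 CPM in sham, 190 and 195 CPM in BDL), and the other was lower in BDL (40.0 and 34.1 against 30.04 and 30.3 CPM). Dmbt1 (-0.39), Muc1 (0.64) and Plet1 (-0.01) did not pass the test in mesenchymal-like cells either, with edgeR adjusted p of 0.593, 0.580 and 0.995.

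Few cells of other classes were present. In hepatocyte-like cells Pigr stood at 524 and 1223 CPM in sham (4 and 168 UMIs) and at 234 and 231 CPM in BDL (16 and 56 UMIs), and Lcn2 at 131 and 58.2 CPM (1 and 8 UMIs) against 527 and 429 CPM (36 and 104 UMIs). These came from 2, 36, 7 and 34 cells and were not tested.

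Cycling cells were compared with the other BEC-like cells of the same library, a contrast the choice of genes did not use. A cell counted as cycling if it held a UMI of either Mki67 or Top2a, markers of dividing cells. These were 153, 113, 502 and 980 of the BEC-like cells (sham 1, sham 2, BDL 1, BDL 2), with a median of 3555 to 8792 UMIs against 2730 to 7599 in the others. Of the 10 members 1 was called, against 3.02% of the 16249 genes tested (2.34% higher and 0.677% lower). Lcn2 was lower in cycling cells of 4 of 4 libraries: 115.5 against 136, 70.6 against 105, 596 against 735 and 655 against 711 CPM. Its log2 difference was -0.23 (SE 0.06, edgeR adjusted p = 0.0127). The call was lost with DESeq2 (adjusted p = 0.242), with a stricter count filter (0.0535), in the odd sublibraries (0.814) and without BDL replicate 1 (0.310). With cells called cycling after thinning to 1000 UMIs, 5 members were called (Lcn2, Dmbt1, Plet1 and Vtcn1 lower, Slpi higher), against 7.79% of the 14682 genes tested (4.47% higher and 3.32% lower). By the main call without thinning, no member but Lcn2 passed the test, with edgeR adjusted p of 0.3775 (Plet1) or more. Among these were Pigr (-0.13), Gabrp (-0.03), Muc1 (0.00), Wfdc18 (0.08) and Slpi (0.27).

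Other genes of mucosal defence were followed in 9 lists of 150 genes chosen around the members, of which 102 could be tested in BEC-like cells. The lists were also chosen with earlier results of these data known, so the share of list genes called is a description and no test of enrichment. By edgeR's quasi-likelihood test, adjusted over all 16041 genes, 22 rose and 13 fell in BDL, or 34.3% of those tested, where 27.3% of all genes were called (14.3% higher and 13.0% lower). The median log2 fold change of the 102 genes was -0.03, as for all genes. All 35 had the same direction between the matching libraries. Fewer list genes were called without sham replicate 1 or sham replicate 2, and more without BDL replicate 1, in fits that leave 1 mouse in a group. In the BEC-like cells without a hepatocyte marker UMI, 3 rose and 5 fell. The share of all genes called in these fits is not given, so the changes are not read as a trait of the list genes. Of the 24 genes the naming rule took, 11 kept an adjusted p under 0.05 whichever library was left out, in fits where 1 group's spread comes from the other group alone, and those named below with values are from these 11 unless stated. Of the 11, 5 kept the call in cells without a hepatocyte marker UMI (Serpinb6b, Socs3, Stat3, Il1r1 and Cd276). The other 6 lost it there: Pglyrp1 (log2 fold change 0.12, edgeR adjusted p = 0.912), Galnt3 (0.43, 0.255), Spint2 (0.43, 0.192), Cldn4 (0.61, 0.148), Cd47 (0.64, 0.0634) and Abat (-2.53, 0.0550).

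Among 10 WAP domain and antiprotease genes tested, 3 rose and 1 fell. Serpinb6b, an intracellular serpin, rose from 32.1 and 29.6 to 130 and 124 CPM (2.04 on the log2 scale, SE 0.12, edgeR adjusted p = 0.000345), and Spint2, an inhibitor of membrane serine proteases whose layout was also among the closest to Gabrp, from 229 and 241 to 406 and 455 CPM (0.87, SE 0.12). Wfdc15b fell (-1.31), a call lost without either sham library. Among 10 antimicrobial genes, 3 rose and none fell, while the other 7 had log2 fold changes from -0.22 to -0.86 that did not pass the test and the median of the 10 was -0.44, against -0.03 for all genes. Those that rose were Pglyrp1, a peptidoglycan recognition protein, from 5.71 and 7.00 to 22.4 and 22.4 CPM (1.82, SE 0.18), with Hp (1.73) and Lbp (1.41), whose calls were lost without either sham library.

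Beside Muc1, 3 of 15 mucin, trefoil and mucin assembly genes rose and 2 fell. Galnt3, which starts mucin-type O-glycans, rose from 81.3 and 79.1 to 157 and 177 CPM (1.06, SE 0.12), while Tff2 (-1.14) and St6galnac1 (-3.44, from 1.65 and 1.999 CPM) fell, calls lost without sham replicate 2. Beside Pigr, 2 of 7 genes of immunoglobulin A transport and support rose, Aldh1a2 (0.94) and Tgfb1 (1.04), and Aldh1a1 fell (-0.82); each call was lost without sham replicate 1. Jchain had at most 7 UMIs in the BEC-like cells of a library, and of the 8 plasma cell markers Xbp1 alone exceeded 1 CPM.

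Of 28 upstream receptors and regulators, 4 rose and 5 fell. Socs3, the feedback inhibitor of STAT3 signalling, fell from 42.4 and 53.0 to 8.83 and 9.58 CPM (-2.37, SE 0.16, edgeR adjusted p = 0.000400), and Stat3 itself from 578 and 613 to 313 and 347 CPM (-0.85, SE 0.12). Il1r1, the interleukin 1 receptor, rose from 36.2 and 50.1 to 102 and 97.8 CPM (1.22, SE 0.17). Beside Vtcn1, 3 of 9 B7 family and other immune ligands rose and none fell: Cd276 (B7-H3) from 10.8 and 15.9 to 35.3 and 50.1 CPM (1.69, SE 0.24), Cd47 (0.92), the ligand that restrains phagocytosis, and Nectin2 (0.52), a call lost without either sham library.

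Beside Plet1, 2 of 10 ductal surface genes rose and none fell. Among them was the tight junction gene Cldn4, from 244 and 328 to 704 and 945 CPM (1.53, SE 0.20), which is also 1 of the biliary markers. Beside Gabrp, 3 of 18 GABA genes could be tested, and Abat, the GABA transaminase, fell from 17.7 and 13.9 to 3.52 and 4.71 CPM (-1.92, SE 0.24). Beside Lcn2, 2 of 10 receptor and iron genes rose (Ireb2 0.49, Hmox1 0.86) and 3 fell, among them the proposed lipocalin receptor gene Slc22a17 (-0.97); these 3 named calls were lost without either sham library, and that of Slc22a17 also with DESeq2 and without BDL replicate 2. In mesenchymal-like cells 5 of 60 list genes rose and 2 fell by the same test, where 2.21% of all genes rose and 3.57% fell; with DESeq2, members and list genes called there came to 4 in place of 9.

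**Figure D5:**
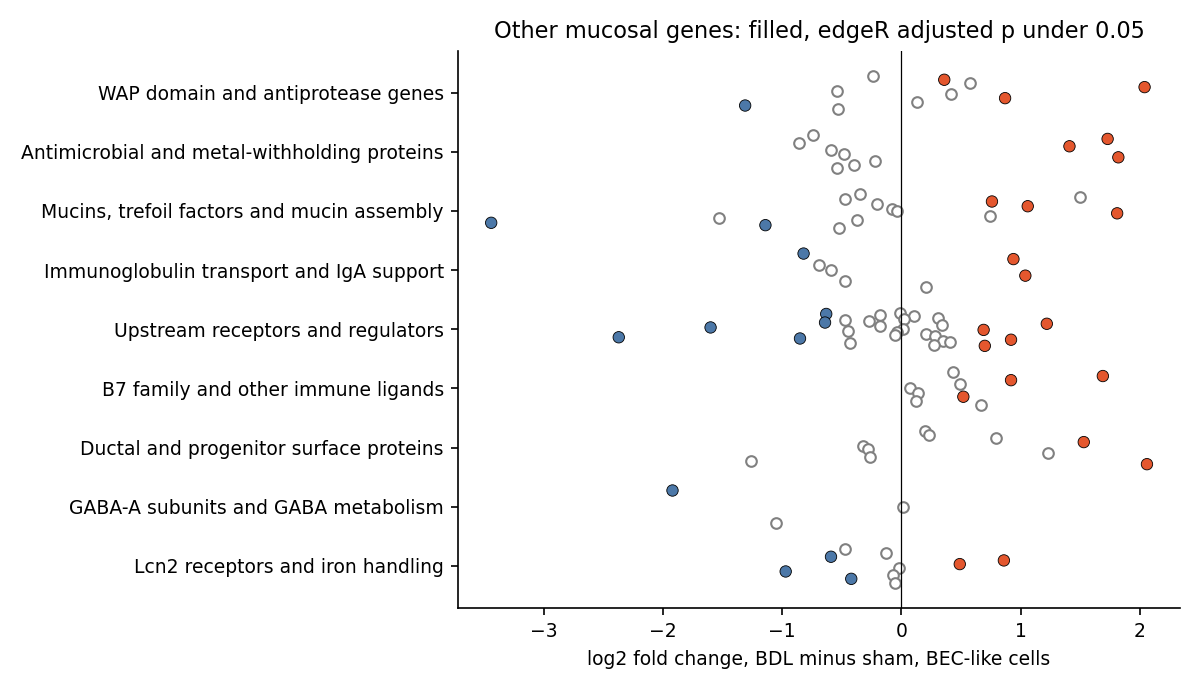
Log2 fold change, BDL minus sham, of the 102 tested genes of 9 companion lists in BEC-like cells; filled points (22 red, higher; 13 blue, lower) have an edgeR adjusted p under 0.05 and open points do not. The points lie on both sides of 0 in most lists, with the B7 family list on the right.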

How the data were processed

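RNA of fixed cells was barcoded by split-pool rounds with random hexamer and oligo(dT) primers (Evercode Whole Transcriptome), per the labels' protocols. The deposited matrices hold raw UMI counts per cell and gene, and the submitters' processing notes name the genome build GRCm39; the aligner, the counting of strand and the cell threshold are not given in the sources used here. Dmbt1 overlaps Fgfr2 and Plet1 overlaps Plet1os on the opposite strand, and Slpi overlaps Mir7678, so shared reads are uncertain there. A deposited estimate of transcripts per cell at a set duplication rate, a signal made by the authors, was not used.

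Cells with at least 500 UMIs and at most 20% mitochondrial UMIs were kept. Scrublet marked 14 cells (0.115%), so few that it has not worked; they were removed and other doublets remain. Cells were clustered (Leiden, resolution 1, 2000 variable genes, 30 components, scanpy 1.11.5) into 19 clusters and named from marker lists, by a rule set after the data were seen. Non-biliary clusters had at least 3 and at least 50% of a list's markers each in 5% of cells and over 2-fold above other cells. Of the rest, those with at least 3 biliary markers within these limits against the non-biliary cells were BEC-like. Clusters under 20 cells, here 1 of 13 cells, stayed unnamed. Counts were summed per library and class and tested with edgeR 4.0.16 (R 4.3.3; TMM, default low-count filter, quasi-likelihood F test, two-sided, Benjamini-Hochberg over all genes, threshold 0.05); cycling cells were tested with library as a block. The mouse is the replicate (n = 2), numbered in sample order. On simulated counts, where 200 genes were given a log2 change of 2, the same test recovered 99% in BEC-like cells (11 false calls among 15628 genes), 93.5% in mesenchymal-like cells (7 among 8394) and 100% in cycling cells (4 among 15606). DESeq2 1.42.0 was an alternative, as were other filters and scalings, single sublibraries, other cell naming and leaving out each library.

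The members and lists were chosen with earlier results of these data known. All 10 members are named, with up to 3 genes of smallest adjusted p under 0.05 from each list and the nearest genes by pattern. Of the genes this rule took, 1 is not reported here.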

Additional observations from a re-analysis of the deposited data

Results flagged for a closer look

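Slpi differed in opposite directions between BEC-like subclusters. Every BDL library lay above every sham library in subcluster 2 (log2 difference 0.87) and subcluster 5 (2.40), and every BDL library lay below every sham library in subcluster 4 (-1.03), the subcluster with most Slpi. Plet1 was higher in every BDL library in subcluster 1 (0.18), subcluster 4 (0.54) and subcluster 5 (0.96), and lower in every BDL library in subcluster 3 (-0.10). With a finer clustering (resolution 1), the groups overlapped in the finer subclusters that held most cells of subcluster 4 for Slpi and of subcluster 3 for Plet1, while each gene was still lower in every BDL library in 1 of 9 finer subclusters. These differences between subclusters were not tested.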

How the results depend on the processing

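No paired analysis was possible because no replicate number in the sample labels links a sham mouse to a BDL mouse. By the sign of the fold, 8 members were higher in BDL in 24 of 25 alternatives run. Without cells holding a hepatocyte marker UMI, chosen after seeing the data, 7 were higher, Wfdc2 came to 0.00, and Dmbt1 (-0.25) and Slpi (1.02) turned their direction. There 5 members were higher without overlap between groups (Lcn2, Wfdc18, Muc1, Vtcn1 and Gabrp). The members were chosen on this contrast and the share of all genes without overlap in those cells is not given, so nothing is read from that count. List genes that rose there numbered 3 and those that fell 5, and Nectin2 came to -0.01. Leaving out 1 library, list genes that rose ranged from 9 to 34 and those that fell from 5 to 16; members higher stayed from 8 to 8, and by share of cells from 7 to 8. In single sublibraries (1, 3, 4, 5, 6, 7 and 8) list rises numbered 5, 13, 12, 12, 10, 13 and 9, and list falls in sublibraries 1, 3, 6 and 8 numbered 3, 8, 8 and 6; sublibrary 1 turned Aldh1a2 (-0.06) and Ireb2 (-0.02). Members and list genes called in mesenchymal-like cells numbered 9, 4 with DESeq2, 14 with no filter and 10 to 15 without 1 library. Members called in cycling cells numbered 1, 0 with DESeq2, 0 with at least 10 CPM, 0 in odd sublibraries, 0 to 1 without 1 library, 2 with 8 cycling genes and 5 after thinning. Pairs with a positive odds ratio in 4 libraries numbered 13, and 26 with no thinning. No filter on low counts shifted the median of all genes by 0.13 (log2) and made 62.8% of calls higher, against 52.3%. Except where fewer libraries, cells or genes were used, the cause was not tested.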
